A study of Mus musculus with 11 samples.

Results

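The clustered protocadherins are 3 neighbouring groups of cadherin-type adhesion genes, named alpha, beta and gamma. They were examined in bulk RNA from 11 mouse orthotopic pancreatic tumours. Members were the protein-coding genes of chromosome 18 whose GENCODE M21 symbol begins with Pcdha, Pcdhb or Pcdhg. This gave 57 of the 54232 genes in the count table, of which 14 were alpha, 22 beta and 21 gamma genes. The family was chosen by its symbols, after 1 member, Pcdhgb2, had been selected on its counts, which were higher in tumours of knockout hosts than in tumours of wild-type hosts. Its difference between the groups, and the counts of other members in the same contrast, are therefore given as a description, and nothing is concluded from them.

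Tumours were grown from 1000 TB32048 cells, a carcinoma line from a female KPC mouse with intact Pkn2, injected into the pancreas in DMEM and Matrigel. The adult female C57BL/6 hosts, matched for age, were Pkn2 fl/fl (KO, n = 6, A to F) or Pkn2 +/+ (WT, n = 5, A to E), and all of them were heterozygous for Rosa CreERT2 and received the same tamoxifen. Rosa CreERT2 acts in nearly all host cell types, so the deletion was not limited to fibroblasts, and the implanted carcinoma cells kept the gene in both groups. Each tumour came from 1 animal, and no batch is labelled. The piece of tumour sequenced mixed carcinoma and host cells, so that fewer cells of a type and less RNA per cell cannot be told apart.

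Clustered protocadherins are single-pass membrane proteins that bind the same isoform on the opposing cell, and they are best known from neurons, where combinations of isoforms give each cell an identity and let its own branches avoid each other. In the alpha and gamma clusters each gene begins with a variable exon under its own promoter, encoding the extracellular and transmembrane parts, which is spliced to constant exons that encode a cytoplasmic tail common to the cluster. Beta genes have only the variable exon. Promoter choice depends on CTCF, cohesin and DNA methylation, and the promoters are often methylated in carcinomas.

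Total counts ran from 16294128 in WT B to 31121422 in WT E, so that 3 counts, taken as the smallest visible level, corresponded to 0.0887 to 0.2503 CPM. CPM are counts scaled to a common library total with TMM factors. Libraries WT A, B and C stood apart from the other 8. The share of their counts on ribosomal RNA genes was 1.31 to 6.39%, against 0.308 to 0.739% in KO tumours and 0.241 to 0.765% in WT D and E. Their gene levels also fell with exonic gene length relative to the mean of all tumours, with slopes of -0.285 to -0.0505, against 0.0107 to 0.1205 in the other 8. Results that rest on these 3 libraries are given with and without them, and their part in the results was not tested further. Pkn2 itself, which encodes the deleted kinase, was at 80.1 to 108 CPM in KO and 62.9 to 138 CPM in WT tumours (edgeR, adjusted p = 0.996). Bulk Pkn2 thus did not separate the groups and does not check the host labels.

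On GRCm38 the family lay on the plus strand of chromosome 18, with the alpha genes at 36930184 to 37187661, the beta genes at 37264938 to 37524479 and the gamma genes at 37661793 to 37841873. The 14 alpha genes ended at 2 neighbouring positions and the 21 gamma genes likewise, because each cluster shares its constant exons. In the longest transcript of each gene, the stretch at the 3′ end that also occurs in another gene, found by comparing exact windows of 100 bases, was 2860 to 2866 bases long in alpha genes. In gamma genes its median length was 2123 bases, and Pcdhgc5 had the shortest, at 414 bases. All 22 beta genes had a single exon, and only Pcdhb21 and Pcdhb22 overlapped each other, by 455 bases.

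A read from a constant exon belongs to every gene of its cluster. How such reads were assigned is not given in the sources used here. They were not counted for every gene, since Gm42416, Gm37013 and Gm37388, models that share gamma constant exons, had 0 counts in every tumour. Alpha and gamma counts may thus hold reads of the variable exons only. For Pcdhgb2 (ENSMUSG00000102748, 37689828 to 37841873) the exon shared with no other gene was 2763 bases long, while 50.1% of the windows of its longest transcript were shared. Before the common tail, 261 of its 2538 windows also occurred in Pcdhgb1, Pcdhgb4 or Pcdhgb8, the last a polymorphic pseudogene that the rule leaves out. For Pcdhga4 36.1% of the windows before the tail were shared, with Pcdhgb1, and for Pcdha4 92.6%, so that the counts of these genes are uncertain. Levels of different genes are compared below per kilobase of exon that no other gene shares.

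Alpha genes were close to undetected. The whole alpha cluster drew 43 counts over the 11 tumours, with 2 to 11 counts per KO tumour and 0 to 12 per WT tumour. A total of 11 of the 14 genes stayed under 3 counts in every tumour, and none was tested. Pcdha5 had 7 counts in WT E and at most 2 elsewhere. Pcdha8 had 6 counts in KO A, 2 in KO E, 1 in KO C and none in WT tumours. Pcdhac2, a C-type alpha isoform, had 4 counts in WT E and at most 2 in KO tumours. The symbol Pcdha11 was carried by 2 identifiers, of which ENSMUSG00000007440 had 6 counts over all tumours and ENSMUSG00000102206 had none. No difference between KO and WT was detectable in the alpha cluster at these counts, which may leave out reads of the constant exons.

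Beta genes were low but widely detected, with counts for 21 of 22 genes; Pcdhb1 was at 0 in all tumours. Summed over the cluster, beta genes reached 35.7 ± 7.55 CPM (SD, n = 6) in the KO group against 23.3 ± 11.1 CPM (SD, n = 5) in the WT group, a ratio of 1.53. The KO sums ran from 28.8 to 48.4 CPM. The WT sums were 9.03, 18.2, 38.5, 21.9 and 28.9 CPM in A to E, so the groups overlapped, with WT C and WT E inside the KO range. The ratio was 1.63 against WT A to C and 1.40 against WT D and E.

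Gamma genes were detected without exception, and their sum was the highest of the 3 clusters. It was 64.6 ± 8.32 CPM (SD, n = 6; 55.5 to 79.9) in the KO group against 29.98 ± 22.2 CPM (SD, n = 5) in the WT group, a ratio of 2.16. In WT tumours A to E it was 15.4, 16.9, 13.8, 38.5 and 65.4 CPM. WT E lay within the KO range, WT D below it, and WT A to C lowest. Without WT A to C the ratio was 1.24, on a log2 scale 0.32 against 1.11 with all tumours, so the cluster-wide difference rested largely on those libraries. WT C was low for gamma genes but had the highest beta sum of the WT tumours.

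**Figure D1:**
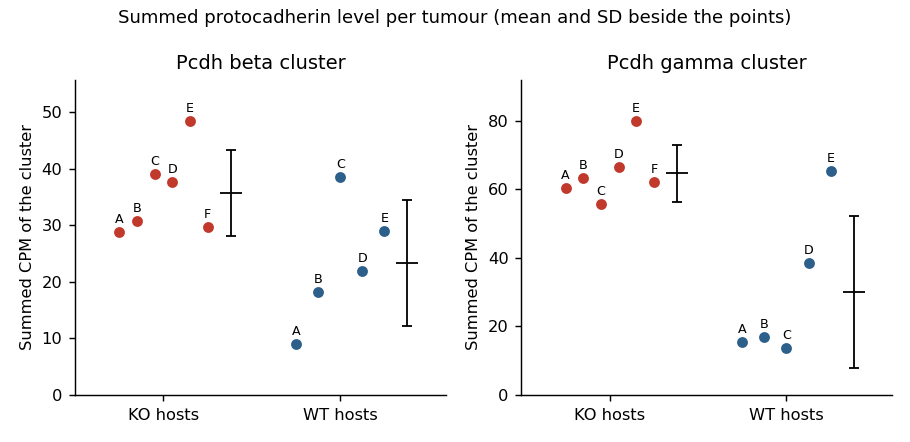
Summed CPM (vertical axis) of the 22 beta and 21 gamma genes in each tumour of KO hosts (red, A to F) and WT hosts (blue, A to E), with the mean and SD of each group beside the points. KO gamma sums sit between 55.5 and 79.9, and WT sums spread from 13.8 to 65.4.

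In each cluster a few genes carried much of the signal. The 4 highest gamma genes per length were Pcdhgc3, Pcdhga10, Pcdhgb2 and Pcdhgb6, with means over all tumours of 5.90, 2.01, 1.98 and 1.78 CPM per kb. Together they held 67.7 to 85.5% of the gamma counts of a KO tumour, against 31.7 to 81.7% for WT. This set includes Pcdhgb2, which was chosen as higher in KO tumours. By WT means alone Pcdhga6 had rank 4 and Pcdhgb2 rank 5, so the comparison of these shares leans toward KO tumours. The leading beta genes were Pcdhb9, Pcdhb17, Pcdhb16 and Pcdhb20, at 1.36, 1.23, 0.593 and 0.573 CPM per kb, with 43.7 to 59.0% of the beta counts of a KO tumour, against 40.8 to 55.5% for WT. In KO tumours Pcdhgb2, Pcdhga10 and Pcdhgb6, with means of 3.21, 2.94 and 2.52 CPM per kb, differed by less than their SD between tumours. Pcdhgc3, at 7.35 CPM per kb, was above each of them in every KO tumour.

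**Figure D2:**
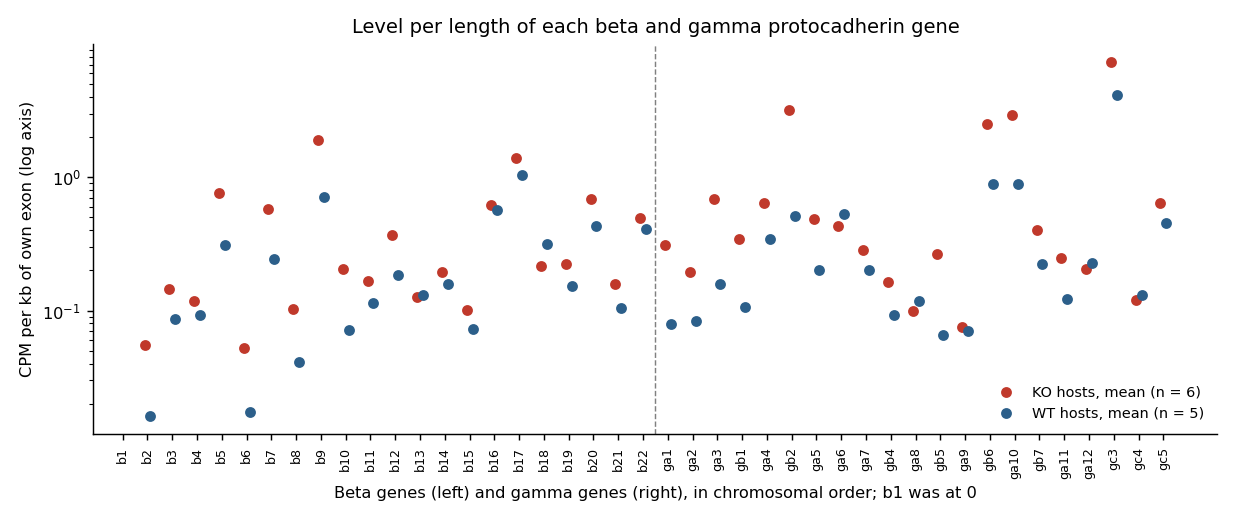
Mean level in CPM per kilobase of exon shared with no other gene (vertical log axis) for each beta and gamma gene in chromosomal order (horizontal axis, Pcdh prefix left out), in KO (red, n = 6) and WT tumours (blue, n = 5). Pcdhgc3 is the highest gene in both groups, and Pcdhgb2 has rank 2 of the gamma genes by its KO mean and rank 5 by its WT mean.

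Pcdhgb2 is a B-type gamma isoform. Its raw counts were 140, 246, 187, 237, 371 and 208 in KO A to F, and 36, 7, 31, 52 and 46 in WT A to E. As CPM, KO tumours had a lowest value of 4.90, a median of 8.51 and a highest value of 15.1, and WT tumours had 1.56, 0.584, 1.52, 2.04 and 1.36. The lowest KO tumour, A, was above the highest WT tumour, D, so the groups did not overlap. Such a gap in the same direction was seen in 1.59% of the 16536 tested genes. Mean levels were 8.86 ± 3.48 CPM (SD, n = 6) for KO and 1.41 ± 0.528 CPM (SD, n = 5) for WT, and the edgeR log2 fold change was 2.63 (SE 0.36).

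The mean level of Pcdhgb2 was 1.22 CPM in WT A to C and 1.70 CPM in WT D and E, both below the lowest KO tumour. Its log2 fold change was 2.38 without WT A to C, 2.29 with the ribosomal share and 2.34 with the gene length slope as a covariate. Leaving out any 1 tumour kept it between 2.41 and 2.79. In each of these fits it was the largest log2 fold change of the members tested. Its call at an adjusted p of 0.05, which the choice of the gene makes a description, was less stable. Of the 11 fits that left out 1 tumour, 3 kept the call, those without KO F, WT D or WT E, and 8 lost it, those without any single tumour of KO A to E or WT A to C. It was also lost without WT A to C together and with either covariate. The adjustment runs over all tested genes, so a lost call need not mean a smaller difference. Without KO A, for example, the log2 fold change of Pcdhgb2 was 2.75.

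As a share of the gamma counts of its own tumour, Pcdhgb2 made up 13.4 ± 3.51% for KO (SD, n = 6; 8.13 to 18.9%) and 6.40 ± 3.999% for WT (SD, n = 5). The WT shares were 10.1, 3.47, 11.03, 5.29 and 2.08% in A to E. On this scale the groups overlapped, since WT A and WT C lay above KO A. The 95% Wilson interval of WT C ran from 7.88 to 15.2%, on 281 gamma counts, and that of WT E from 1.56 to 2.76%, on 2211 counts. These intervals cover counting error only. Per length, Pcdhgb2 ranked between 2 and 4 among the gamma genes of each KO tumour, 2 in WT A and C, and 5 to 9 in WT B, D and E.

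**Figure D3:**
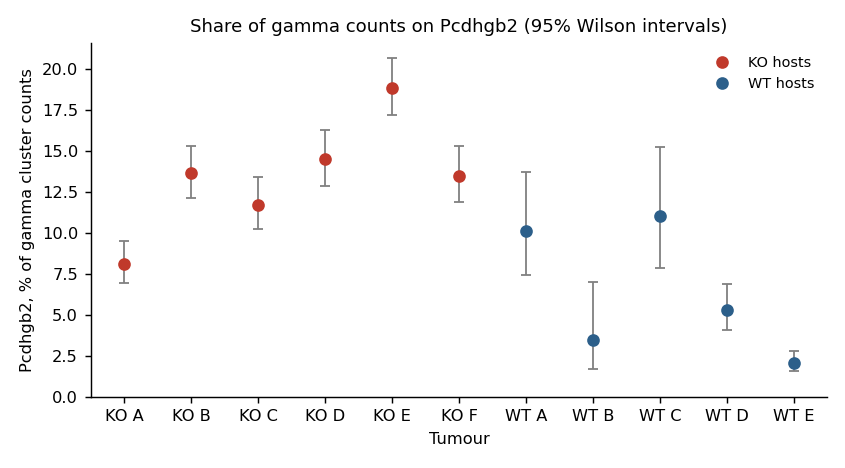
Percentage of all gamma cluster counts that fell on Pcdhgb2 (vertical axis) in each tumour, with 95% Wilson intervals (grey bars), for KO hosts (red) and WT hosts (blue). KO shares run from 8.13 to 18.9%, and WT A and WT C, at 10.1 and 11.03%, fall among them.

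Pcdhgc3, a C-type isoform whose cytoplasmic domain binds the Wnt pathway scaffold Axin1, had another pattern. KO tumours lay within a narrow span, with a lowest value of 20.98, a median of 24.7 and a highest value of 28.8 CPM. WT tumours A to E had 9.11, 5.26, 1.47, 19.4 and 35.2 CPM. WT E was above all KO tumours, and WT A, B and C were far below them. The log2 fold change was 0.81 (SE 0.55, edgeR adjusted p = 0.379) and turned to -0.13 without WT A to C. The CV of its CPM was 11.4% in KO, the lowest of the tested members, and 96.3% in WT tumours.

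Pcdhga10, an A-type isoform, had KO values with a lowest of 5.60, a median of 7.82 and a highest of 10.2 CPM. Its WT values were 0.911, 1.335, 0.688, 2.43 and 6.35 CPM. Only WT E reached the KO range, and the log2 fold change was 1.69 (SE 0.51, edgeR adjusted p = 0.101). Without WT A to C it was 0.81.

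The B-type isoform Pcdhgb6 had a lowest KO value of 3.55, a median of 5.93 and a highest of 10.7 CPM, and WT values of 0.998, 0.167, 0.688, 3.68 and 5.88 CPM. WT D and E lay within the KO range. Its log2 fold change was 1.47 (SE 0.67, edgeR adjusted p = 0.201), and 0.44 without WT A to C.

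**Figure D4:**
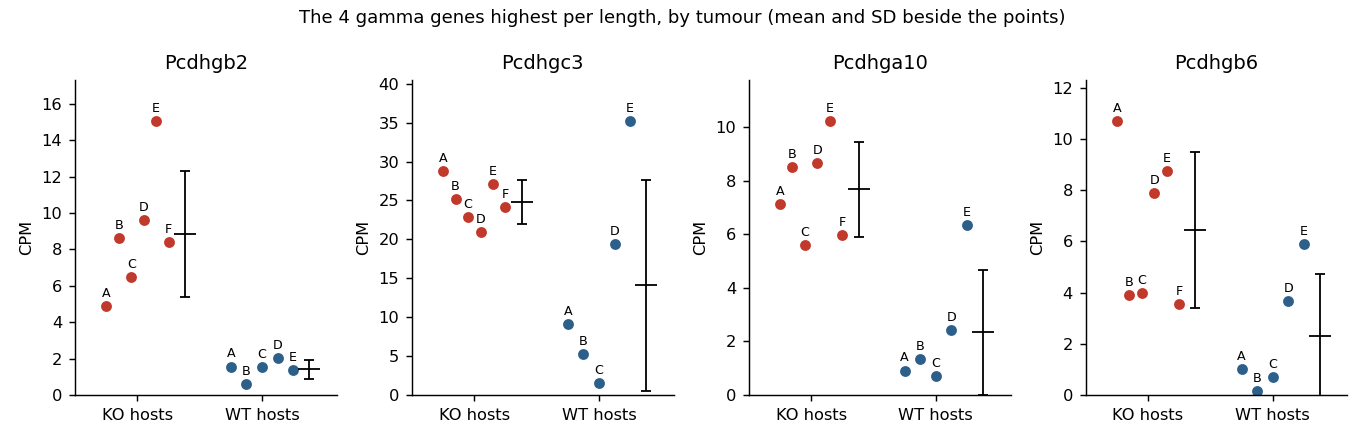
CPM (vertical axis of each panel) of Pcdhgb2, Pcdhgc3, Pcdhga10 and Pcdhgb6 in each KO tumour (red, A to F) and WT tumour (blue, A to E), with the mean and SD of each group beside the points. The groups are separate for Pcdhgb2, with WT values up to 2.04 and KO values from 4.90, and overlap for the other 3 genes.

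The tested neighbours of Pcdhgb2 in the cluster were both A-type isoforms. Pcdhga4, just upstream, had a lowest KO value of 0.667, a median of 0.959 and a highest of 1.54 CPM, and WT values of 0.0868, 0.167, 0.393, 1.645 and 0.414 CPM. WT D was above every KO tumour, and the log2 fold change was 0.85 (SE 0.59, edgeR adjusted p = 0.392). It turned to -0.021 without WT A to C and was 1.855 (adjusted p = 0.0501) without WT D alone. Pcdhga5, just downstream, had a lowest KO value of 0.455, a median of 1.38 and a highest of 1.57 CPM, and WT values of 0.130, 0.0834, 0.737, 0.5875 and 1.005 CPM. Its log2 fold change was 1.21 (SE 0.54, edgeR adjusted p = 0.195), with WT C, D and E inside the KO range, and 0.62 without WT A to C. Neither neighbour showed the gap between groups seen for Pcdhgb2, although the differences between these fold changes were not tested.

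Of the beta genes, Pcdhb9 was the highest per length and had the smallest p. KO values had a lowest of 3.06, a median of 5.73 and a highest of 9.08 CPM, and WT values were 0.694, 1.84, 2.60, 2.15 and 3.49 CPM. Only WT E passed the lowest KO tumour, F. The log2 fold change was 1.43 (SE 0.40, edgeR adjusted p = 0.0942), and 1.05 without WT A to C.

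Pcdhb17 had a lowest KO value of 4.77, a median of 5.56 and a highest of 11.98 CPM, and WT values of 1.91, 3.17, 11.45, 3.76 and 3.75 CPM. In each group 1 tumour, KO E or WT C, lay far above the rest. Pcdhb16 had a lowest KO value of 1.75, a median of 2.74 and a highest of 6.38 CPM, and WT values of 0.868, 2.75, 3.69, 4.90 and 2.66 CPM. Pcdhb20 had a lowest KO value of 1.73, a median of 2.21 and a highest of 3.66 CPM, and WT values of 0.477, 1.085, 2.85, 1.37 and 1.89 CPM. All 3 genes overlapped broadly between groups, with edgeR adjusted p from 0.320 for Pcdhb20 through 0.551 for Pcdhb17 to 0.901 for Pcdhb16. Without WT A to C the log2 fold changes of Pcdhb17 and Pcdhb20 were 0.79 and 0.59, and that of Pcdhb16 was -0.23.

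Over all clusters, 34 members passed the edgeR filter on low counts, 16 beta and 18 gamma genes. Only Pcdhgb2, the gene that led to the choice of the family, passed an adjusted p of 0.05 in edgeR, in a contrast where 0.0181% of tested genes were called higher and 0% lower. At an unadjusted p under 0.05, 10 members were higher and none lower, against 8.57% of tested genes higher and 15.5% lower. Because members and contrast were chosen together, these counts are not evidence for the family as a whole.

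The log2 fold change was above 0 for 14 of 16 beta and 15 of 18 gamma genes, compared with 48% of all tested genes. The median was 0.53 for beta and 0.92 for gamma genes, beside -0.026 for all tested genes. Among gamma genes the 5 tested B-type isoforms were all above 0, with a median of 1.47. The 10 A-type isoforms had a median of 1.03 and the 3 C-type isoforms one of 0.50. The largest values after Pcdhgb2 were those of the A-type isoforms Pcdhga3 (2.02, SE 0.60, edgeR adjusted p = 0.0997) and Pcdhga1 (1.87, SE 0.57, adjusted p = 0.105). Pcdhb18, Pcdhga6, Pcdhga12, Pcdhgc4 and Pcdhb13 had values of -0.55, -0.30, -0.13, -0.10 and -0.077.

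The gamma median moved with the 3 WT libraries that stood apart, and the beta median moved less. Without WT A to C the median was 0.44 for 21 gamma genes and 0.46 for 19 beta genes. By isoform type it was then 0.69 for 6 B-type, 0.21 for 12 A-type and -0.25 for 3 C-type genes. Some of these genes passed the filter only in that fit, so the medians with and without WT A to C cover different sets. Over both clusters, 40 members passed the filter in that fit, 29 of them above 0 and 11 below, beside 51% of all genes above 0. None was called by edgeR, and 4 members were higher and none lower at an unadjusted p under 0.05, against 8.21% of all genes higher and 9.01% lower. Log2 fold changes of the C-type genes Pcdhgc3 and Pcdhgc5 were then -0.13 and -0.33, while those of Pcdhga3, Pcdhga1 and Pcdhgb5 were 1.42, 1.005 and 1.86. Of the 34 members tested with all tumours, WT A lay below the whole KO range in 30, WT B in 19, WT C and WT D in 18 each, and WT E in 3. The share of all tested genes in that position was not examined, so these counts do not set the members apart from other genes.

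**Figure D5:**
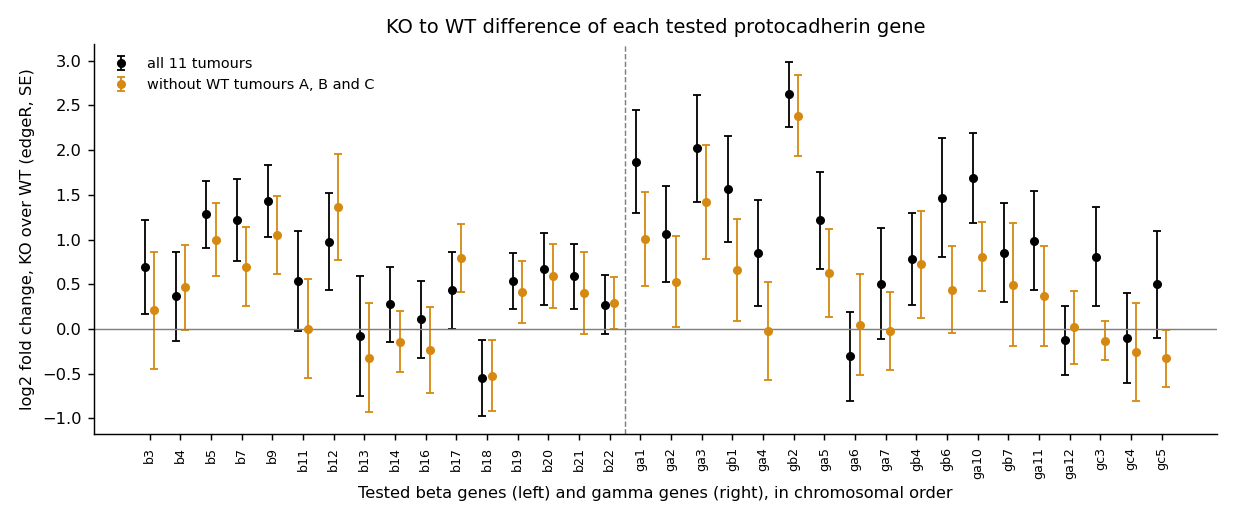
Log2 fold change of KO over WT with its SE (vertical axis, edgeR) for the 34 tested genes in chromosomal order (horizontal axis, beta left and gamma right, Pcdh prefix left out), with all 11 tumours (black) and without WT tumours A, B and C (orange). Pcdhgb2 is the highest gene in both fits, at 2.63 and 2.38, while Pcdhgc3 moves from 0.81 to -0.13.

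DESeq2, run on the same counts, called 7 members higher, Pcdhb5, Pcdhb9, Pcdhga1, Pcdhga3, Pcdhga10, Pcdhgb2 and Pcdhgb5, where 3.19% of the genes with an adjusted p were called in that direction. A comparably wide set came from edgeR once WT E was left out. That fit called 9 members, Pcdhb5, Pcdhb7, Pcdhb9, Pcdhb10, Pcdhga1, Pcdhga3, Pcdhga10, Pcdhgb1 and Pcdhgb2, beside 3.63% of all tested genes. WT E was the WT tumour closest to the KO tumours for the gamma sum, and the median log2 fold change of the members without it was 1.05.

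WT tumours varied more than KO tumours in 32 of the 34 tested members. The median CV over members was 37.9% in KO and 73.5% in WT tumours. The WT group includes WT A to C, and spread was examined neither without them nor over all tested genes. The wider spread in WT tumours is thus not shown to be particular to the family. Pcdhgb5, the B-type isoform that did not pass the filter with all tumours, had 233 counts in total, as many as the median gamma gene. It ran from 0.315 to 2.30 CPM in KO tumours and from 0.130 to 0.442 CPM in WT tumours, which overlapped, and its log2 fold change was 2.05 in edgeR without the filter.

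Members also varied together within groups. After each group's mean of log2 CPM was subtracted, the median Pearson r over the 120 pairs of tested beta genes was 0.47, and over the 153 pairs of tested gamma genes it was 0.36 (n = 11 tumours). All genes of a tumour share its library, depth and length slope, so these are given as descriptions. The members most like Pcdhgb2 were Pcdhga3 (r = 0.823), Pcdhga2 (r = 0.635) and Pcdhga4 (r = 0.537). Outside the family the highest were Rerg (r = 0.909), which encodes a Ras-like growth inhibitor, Relch (r = 0.889), Fhad1 (r = 0.882), the glycosyltransferase gene B4galnt2 (r = 0.882) and Vps4b (r = 0.880), an ESCRT ATPase.

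Nonclustered protocadherins are relatives outside the clusters that do not share this genomic layout. Pcdh1 and Pcdh12 lie downstream of the gamma cluster and are counted among the flanking genes below as well. Of 12 such genes 9 were tested, 6 with a log2 fold change above 0, none called, with a median of 0.073. At an unadjusted p under 0.05, 3 were higher and none lower, where 8.57% of all tested genes were higher and 15.5% lower. The 3 with the smallest p were Pcdh9 (3.31, SE 0.86, edgeR adjusted p = 0.0906), Pcdh7 (0.84, SE 0.24, adjusted p = 0.0976) and Pcdh1 (0.81, SE 0.37, adjusted p = 0.197). Pcdh9 was low, at 0.422 to 5.24 CPM in KO and 0.0392 to 0.541 CPM in WT tumours. Pcdh1, which lies downstream of the gamma cluster, was at 51.4 to 85.0 CPM in KO and 13.0 to 76.4 CPM in WT tumours. The values of Pcdh9, Pcdh7 and Pcdh1 were 5.47, 0.41 and 0.92 without WT A to C. In that fit 5 of the 9 tested genes were above 0, beside 51% of all genes, with a median of 0.13. At an unadjusted p under 0.05, 3 were then higher and 1 lower, against 8.21% and 9.01% of all genes.

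Regulators of the clusters were all expressed, and none of 19 was called. Of these, 16 had a log2 fold change above 0, beside 48% of all tested genes, with a median of 0.26. At an unadjusted p under 0.05, 3 were higher and none lower, against 8.57% and 15.5% of all tested genes. Only 4 of the 19 were above 0 without WT A to C, with a median of -0.12. The cohesin subunit genes Stag2 and Smc1a had values of 0.69 (SE 0.20, edgeR adjusted p = 0.0957) and 0.58 (SE 0.22, adjusted p = 0.148). Ctcf, encoding the DNA-binding factor that sets promoter contacts, was at 93.5 ± 6.64 CPM (SD, n = 6) for KO and 82.3 ± 18.6 CPM (SD, n = 5) for WT, a log2 fold change of 0.18. Smchd1, a silencer of the clusters, and the cohesin gene Rad21 had values of 0.39 and 0.19. Without WT A to C, the values of Ctcf, Smchd1 and Rad21 turned to -0.053, -0.16 and -0.13, and those of Stag2 and Smc1a were 0.38 and 0.36.

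Partners of the cytoplasmic domains include focal adhesion kinases and the WAVE actin-nucleating complex. Of 23 such genes 22 were tested, 17 above 0 and none called, with a median log2 fold change of 0.17. Of all tested genes 48% were above 0. At an unadjusted p under 0.05, 3 partners were higher and 1 lower, against 8.57% and 15.5% of all tested genes. Without WT A to C, 18 of the 22 were above 0, beside 51% of all genes, with a median of 0.076. The WAVE subunit genes Cyfip2 and Brk1 had values of 1.32 (SE 0.37, edgeR adjusted p = 0.0929) and -1.003 (SE 0.32, adjusted p = 0.111). Cyfip2 was at 0.74 and Brk1 at 0.0099 without WT A to C. The focal adhesion kinase genes Ptk2b and Ptk2 had values of 0.43 (SE 0.14, adjusted p = 0.118) and 0.094 (SE 0.17, adjusted p = 0.763), and Axin1 had 0.28 (SE 0.16, adjusted p = 0.307). These 3 were at 0.33, -0.21 and 0.083 without WT A to C.

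Genes around the clusters had a median near that of all tested genes. Of 25 protein-coding genes that flank or lie between the clusters, 21 were tested, 8 above 0 and none called, with a median log2 fold change of -0.071. At an unadjusted p under 0.05, 2 were higher and 6 lower, against 8.57% of all tested genes higher and 15.5% lower. Without WT A to C, 11 of the 21 were above 0, beside 51% of all genes, with a median of 0.021. In that fit 4 were higher and 2 lower at an unadjusted p under 0.05, against 8.21% and 9.01% of all genes. The smallest p were those of Tmco6 (-0.67, SE 0.20, edgeR adjusted p = 0.105), Ndufa2 (-1.44, SE 0.46, adjusted p = 0.111), a complex I subunit gene, and Hdac3 (-0.61, SE 0.20, adjusted p = 0.114), a histone deacetylase gene. Ndufa2 turned to 0.53 without WT A to C, where Tmco6 and Hdac3 had values of -0.42 and -0.058. The 3 gene models that span the clusters, Gm42416, Gm37013 and Gm37388, had 0 counts.

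Markers of cell types that could carry protocadherin RNA were summed per tumour. Neuronal markers, 5 of 10 tested and 4 of those with a log2 fold change above 0, summed to 51.5 to 214.5 CPM in KO and 18.6 to 130 CPM in WT tumours, and Tubb3, at 16.7 to 205 CPM, made up most of this. Of the other neuronal markers, Elavl3, Elavl4 and Nefm had at most 6 counts in any tumour, while Stmn2 had 10 to 158, Prph 4 to 168, Snap25 12 to 70 and Syt1 0 to 24. Log2 fold changes were 1.37 for Stmn2, 1.42 for Prph, 1.27 for Syt1 and -0.58 for Snap25. The untested Rbfox3, Elavl3, Elavl4, Nefl and Nefm all had lower means in KO than in WT tumours, with at most 14 counts per tumour. Mean levels in KO and WT tumours were 0.219 and 0.321 CPM for Rbfox3 and 0.115 and 0.255 CPM for Nefl. Schwann cell markers, 2 of 7 tested and none above 0, summed to 1.81 to 11.6 CPM in KO and 4.82 to 24.0 CPM in WT tumours, and Sox10 had at most 1 count. Without WT A to C, 4 of 5 tested neuronal and 1 of 2 Schwann cell markers were above 0. Their medians were then 1.61 and 0.070.

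Fibroblast markers had log2 fold changes above 0 in 8 of 9 genes, with sums of 4540 to 9631 CPM in KO and 2593 to 9531 CPM in WT tumours. Endothelial markers were above 0 in 5 of 6 genes (163 to 228 against 107.5 to 240.5 CPM) and mural markers in 5 of 6 (303 to 402 against 190.1 to 491 CPM). None of the 6 epithelial markers was above 0, with sums of 2657 to 5442 CPM in KO and 3086 to 9254 CPM in WT tumours. Mesothelial markers were above 0 in 3 of 4 genes (149 to 409 against 157 to 465 CPM). No marker of these lists was called by edgeR, and none was at 0 in every tumour. Of all tested genes 48% were above 0. Without WT A to C, 6 fibroblast, 3 endothelial, 2 mural, 1 mesothelial and 0 epithelial markers were above 0, beside 51% of all genes. The medians of these lists were then 0.11, 0.086, -0.10, -0.31 and -0.49. The part of cell type shares in the protocadherin values was not tested.

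Leukocyte marker sums had higher means in KO tumours. All 4 macrophage markers (525 to 863 CPM in KO against 335 to 643 in WT tumours), all 4 B cell markers (29.7 to 90.35 against 5.76 to 27.55) and all 3 neutrophil markers (205 to 2090 against 133 to 899.7) had log2 fold changes above 0, and none was called by edgeR. B cell sums did not overlap between groups, and a gap in that direction was seen in 1.59% of single tested genes. Both tested adipocyte markers were above 0, with a median log2 fold change of 3.28 and sums of 0.322 to 20.6 CPM in KO and 0.130 to 4.34 CPM in WT tumours. None of the 3 tested acinar markers was above 0, with a median of -1.96 and sums of 7.25 to 572.5 CPM in KO and 12.85 to 1515 CPM in WT tumours. Islet markers, 1 of 7 tested and not above 0, summed to 0.650 to 83.2 CPM in KO and 0.167 to 328 CPM in WT tumours. None of these markers was called by edgeR. Without WT A to C, all 4 B cell and both adipocyte markers stayed above 0, with medians of 1.83 and 4.83. In that fit 3 of 4 macrophage and 2 of 3 neutrophil markers were above 0, with medians of 0.31 and 3.50. Of 5 tested acinar and 7 tested islet markers, 0 were above 0. Their part in the protocadherin values was not tested.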

How the data were processed

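RNA of 11 tumours was measured. The authors trimmed paired reads with Trimmomatic, aligned them by strand with HISAT2 2.1.0 to GRCm38 (mm10) and deposited raw counts, made with HTSeq 0.11.2 from unique reads over the exons of each gene. The overlap mode and annotation release are not given in the sources used here. The deposited normalised table was not used. Symbols, positions and exons came from GENCODE M21, which matched 54165 of 54232 identifiers.

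KO and WT were compared with the edgeR quasi-likelihood test (version 4.0.16, R 4.3.3; TMM, filterByExpr, no covariates), with Benjamini-Hochberg adjustment over 16536 genes and a threshold of 0.05. SE was the absolute log2 fold change over the square root of F. DESeq2 1.42.0, other factors, filters, covariates and left-out tumours were alternatives. The edgeR step was tested on simulated data. No 2 libraries agreed within sampling noise (chi-square per degree of freedom at least 33.9).

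Per-tumour values were given for Pcdhgb2, its tested neighbours, the 4 members of each cluster highest per length and members without overlap. Of related lists the 3 smallest p were named, plus Ctcf, Smchd1, Rad21, Ptk2 and Axin1, and the 5 genes most correlated with Pcdhgb2, apart from 1 gene that is not reported here. Members and lists were chosen with earlier results of these data known.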

Additional observations from a re-analysis of the deposited data

Results flagged for a closer look

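Over 72 groups examined, 2 for each tested beta and gamma gene and for the cluster sums, 3 had a tumour that stood apart from the rest of its group by Dixon's criterion, where chance gives about 1 in 20, or 3.6. Pcdhb17 in KO E was at 11.98 CPM, against 4.77 to 6.14 CPM in the other KO tumours. Pcdhb17 in WT C was at 11.45 CPM, against 1.91 to 3.76 CPM in the other WT tumours. Pcdhga4 in WT D was at 1.645 CPM, against 0.0868 to 0.414 CPM in the other WT tumours. Each of these groups overlapped with the other group.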

How the results depend on the processing

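With DESeq2, 593 genes were called higher and 896 lower among all genes, 7 members higher, and 4 related genes higher and 3 lower. Without an expression filter edgeR called 39 genes higher and 6 lower, and with at least 10 counts in every tumour 0 higher (1183 at an unadjusted p under 0.05) and 0 members (2 at an unadjusted p under 0.05), since that filter removes Pcdhgb2. With the ribosomal share as a covariate 0 genes were called higher (722 at an unadjusted p under 0.05) and 0 members (7), and with the gene length slope 0 genes (1094) and 0 members (9). Without WT A, B and C 4 genes were called higher and 3 lower, 0 members were called (4 at an unadjusted p under 0.05), and the log2 ratio of the gamma sum was 0.32.

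The replicate letters gave little sign of pairing, though so few correlations cannot exclude it. Deviations of same-lettered tumours correlated at -0.172 to 0.163, and only letter A correlated best with its own. With the replicate block 7 genes were called higher and 1 lower, 0 members were called (14 at an unadjusted p under 0.05), and Pcdhgb2 had a log2 fold change of 2.62.

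Leaving out 1 tumour at a time gave 0 to 608 genes higher and 0 to 1248 lower, 0 to 9 members, and 0 to 3 related genes higher and 0 to 4 lower, each upper value without WT E. Without WT D 203 genes and 1 member were called higher. Over these fits the log2 ratio of the sums stayed between 0.41 and 0.87 for beta and between 0.93 and 1.61 for gamma. Signs turned within ranges of -0.40 to 0.29 for Pcdhb13, -0.21 to 0.37 for Pcdhb16, -0.34 to 0.032 for Pcdhga12, -0.37 to 0.11 for Pcdhgc4 and -0.0040 to 0.22 for Ptk2.

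Without WT A, B and C the log2 fold change reversed for Pcdhb14 (-0.14), Pcdhb16 (-0.23), Pcdhga4 (-0.021), Pcdhga6 (0.050), Pcdhga7 (-0.023), Pcdhga12 (0.021), Pcdhgc3 (-0.13), Pcdhgc5 (-0.33), Rad21 (-0.13), Brk1 (0.0099), Smchd1 (-0.16), Ptk2 (-0.21), Ndufa2 (0.53) and Ctcf (-0.053). With the ribosomal share it reversed for Pcdhb16 (-0.10), Rad21 (-0.094) and Ptk2 (-0.10), and with the gene length slope for Pcdhb14 (-0.031), Pcdhb16 (-0.20), Rad21 (-0.056) and Ptk2 (-0.089). The cause was not tested. DESeq2 size factors and upper-quartile factors moved the median log2 fold change of all genes by 0.017 and -0.010 and changed no count of calls among members. No alpha gene passed the filter. In DESeq2 and in edgeR without a filter Pcdha8, with 9 counts in KO and none in WT tumours, was fitted with a higher log2 fold change than Pcdhgb2, a fitted value that is no bound. Many members with under 1 CPM rest on few counts in WT B, the shallowest library.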

Other observations

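Among the counts of the 6 B-type gamma genes alone, Pcdhgb2 made up 29.2 to 56.3% in KO tumours, lowest in KO A and highest in KO E. In WT tumours A to E it made up 50.0, 28.0, 40.3, 29.1 and 13.7% of 72, 25, 77, 179 and 336 counts. The groups overlapped on this scale, with WT A and WT C among the KO tumours. Relative to Pcdhgc3, Pcdhgb2 had 0.170 to 0.557 times as many counts in KO tumours and 0.0386 to 1.03 times as many in WT tumours, where WT C, the tumour with the fewest Pcdhgc3 counts, had the highest ratio.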
